A study of Mus musculus with 13 samples.

Results

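The miRNAs miR-532, miR-188, miR-362, miR-501 and miR-500 come from 5 hairpins that lie close together on the mouse X chromosome. This cluster lies within the gene Clcn5, which encodes a chloride/proton exchanger of endosomes. Here 8 mature miRNAs of this cluster were described, out of the mouse miRNAs on the array, of which 485 were detected on at least 1 array and 594 on none. They were mmu-miR-532-5p, mmu-miR-532-3p, mmu-miR-188-5p, mmu-miR-362-5p, mmu-miR-362-3p, mmu-miR-501-5p, mmu-miR-501-3p and mmu-miR-500-3p. The cluster was chosen by the lower array values of mmu-miR-362-5p and mmu-miR-501-3p in tumors of curcumin-fed mice, so the diet difference of these 2 miRNAs is given as a description with no test. The other 6 were included by their place in the cluster and were tested, but they were measured in the same 13 tumors and the same contrast, so their differences are not independent of that choice. The array also held mmu-miR-188-3p and mmu-miR-500-5p, the remaining arms of these hairpins, which brings the arms measured to 10.

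Male C57BL/6 mice received B78H1 cells subcutaneously in each flank. The line is a mouse melanoma without pigment. It goes back to the B16 tumor and carries neither MHC class I nor Tap-2. The 7 mice of the curcumin group ate chow with 4% curcumin from 14 days before the injection to the end, and the 6 control mice ate standard chow of the same batch. Tumors were taken after 28 days, and total RNA of 1 tumor was hybridized to each 1-color miRNA array. All mice carried the same tumor line, which is a single clone, and the labels do not say from which mouse or flank an array came, so whether arrays share an animal could not be checked.

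A miRNA hairpin is cut into a duplex of a 5p and a 3p arm, of which usually one is loaded into an Argonaute protein and the other degraded. The loaded arm finds its target mRNAs mainly through its seed, bases 2 to 8 from the 5′ end, and lowers their translation or stability. Hairpins that lie close together in one direction can be cut from one primary transcript, so the question addressed was whether the measured arms of these hairpins were lower under the curcumin diet.

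Mature sequences were taken from RefSeq (GRCm38.p6), which gave 9 of the 10 arms. They are shown because arms of different hairpins share seeds and other bases. Likeness over the whole sequence bears on what a probe can tell apart. The seed is in capitals. In mmu-miR-362-5p and mmu-miR-500-5p the seed is the same and 16 of 24 bases are equal when both are lined up at the 5′ end. The seed of mmu-miR-501-5p has 6 of its 7 bases in common with it.
mmu-miR-362-5p: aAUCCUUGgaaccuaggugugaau
mmu-miR-500-5p: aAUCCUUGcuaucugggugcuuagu
mmu-miR-501-5p: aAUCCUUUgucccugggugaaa
The 3p arms of miR-500 and miR-501 also share a seed, and 18 of their 22 bases are the same.
mmu-miR-500-3p: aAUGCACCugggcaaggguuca
mmu-miR-501-3p: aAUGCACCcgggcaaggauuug
The arms left carried seeds of their own within the cluster, among them both arms of miR-188. The seed of mmu-miR-188-5p has 6 of its 7 bases in common with that of mmu-miR-501-5p.
mmu-miR-362-3p: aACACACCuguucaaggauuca
mmu-miR-188-5p: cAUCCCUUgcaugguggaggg
mmu-miR-188-3p: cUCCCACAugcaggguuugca
mmu-miR-532-3p: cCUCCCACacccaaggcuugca
The 5p arm of miR-532 is given by name.

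In the order of transcription on the minus strand, Mir532 (chrX:7248402-7248497, GRCm38.p6) comes first. Mir188 (chrX:7247989-7248056) follows 345 bases later. Mir362 (chrX:7241982-7242046) lies 5942 bases further on. Mir501 (chrX:7241243-7241351) follows after 630 bases and Mir500 (chrX:7237683-7237774) after another 3468 bases. The 5 hairpins span 10815 bases, and all 5 lie within the bounds that the RefSeq gene table gives for Clcn5. Their place relative to its exons was not determined.

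Total miRNA signal per array ranged from 114095 to 281508 in curcumin tumors and from 150272 to 244666 in controls, in arbitrary fluorescence units. The scanner software called 272 to 370 miRNAs detected in curcumin tumors and 313 to 412 in controls. Curcumin tumor 5 had the lowest total and the fewest detected miRNAs, and control 5 had the most detected miRNAs. Values are log2 of the quantile-normalized sum over the probes of a miRNA, with sums at or below 0 set to a floor of -7.03. Of all values, 51.4% were at that floor. On both slides the control tumors lay in row 1 of array positions and the curcumin tumors in row 2, so position and diet cannot be told apart. With 6 and 7 arrays a diet, their number sets how small a difference can be told.

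Of the 8 listed miRNAs, 6 were detected on all 13 arrays. The fall of mmu-miR-362-5p, which is among these 6, chose the cluster, and the other 5 also had a lower mean in curcumin tumors. Among the 6 listed miRNAs that were not used for the choice, 4 fell with the curcumin diet by limma with Benjamini-Hochberg adjustment over all mouse miRNAs on the array. These were mmu-miR-188-5p, mmu-miR-362-3p, mmu-miR-532-5p and mmu-miR-500-3p, with falls of 0.79 to 1.72 on the log2 scale. Over all miRNAs 7.51% were lower past the same threshold of 0.05, and among the 243 miRNAs detected on all arrays 21.4% were. Neither share is a test of the cluster, since a fall in this contrast led to its choice. mmu-miR-532-3p differed by -1.10, which did not pass, and mmu-miR-501-5p was detected in no tumor. The median log2 difference was -1.07 over the 8 listed miRNAs, which include both that chose the cluster, and -1.05 over the 5 others detected on all arrays, beside -0.09 over the 243 miRNAs detected on all arrays, of which 56.8% had a lower mean under curcumin. In bulk tumor RNA, fewer cells of a type that expresses the cluster and less miRNA per cell cannot be told apart.

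**Figure D1:**
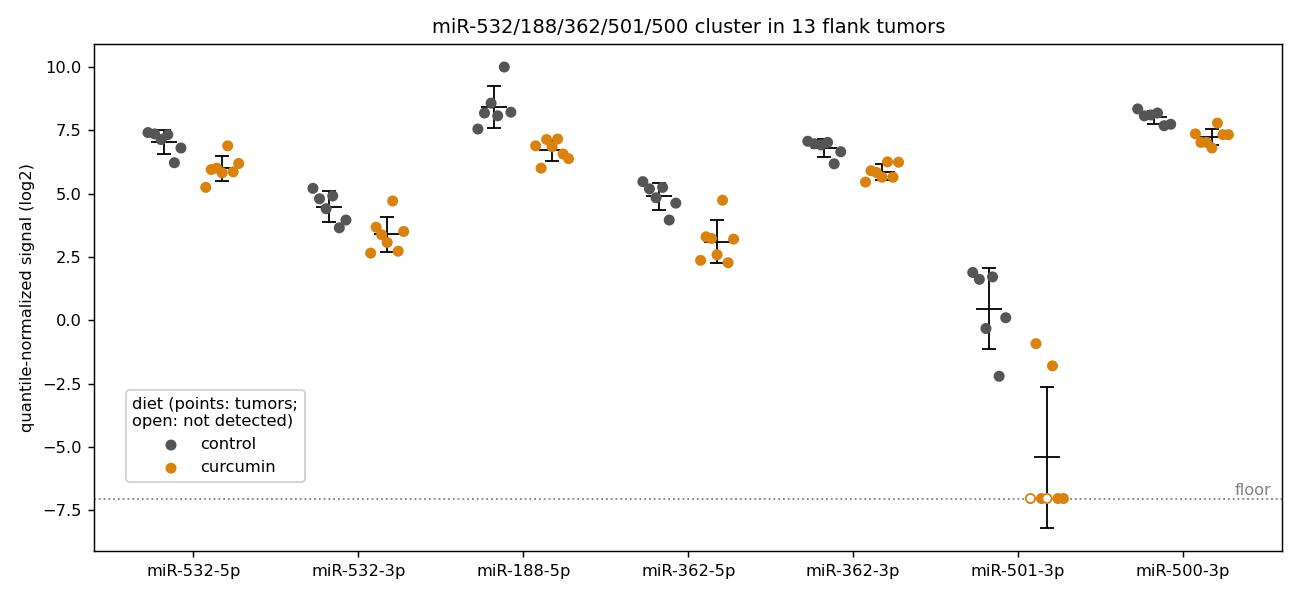
Each point is 1 tumor, with the quantile-normalized signal (log2) on the vertical axis and 7 cluster miRNAs in genomic order on the horizontal axis, grey for control (n = 6) and orange for curcumin (n = 7), and with the mean and SD as a bar and whiskers. Open points were not called detected, and the dotted line is the floor of -7.03. The diets are separate in miR-188-5p (highest curcumin 7.16, lowest control 7.56) and overlap by 1 or more tumors in the others.

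The first hairpin, miR-532, gave both arms in every tumor. mmu-miR-532-5p measured 5.25, 5.96, 6.01, 5.83, 6.89, 5.87 and 6.20 in curcumin tumors 1 to 7. In controls 1 to 6 it measured 7.42, 7.37, 7.14, 7.33, 6.23 and 6.81. All but 1 curcumin tumor lay below the lowest control, and the exception was curcumin tumor 5, which exceeded controls 5 and 6. The mean was 6.00 ± 0.49 (SD, n = 7) against 7.05 ± 0.46 (SD, n = 6), a fall of 1.05 on the log2 scale (SE 0.26, limma adjusted p = 0.0228) or 2.07-fold. The exact two-sided permutation test over the 1716 splits of the tumors gave p = 0.00583. Leaving out control 2 or control 4 took the adjusted p to 0.0547 and 0.0524.

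mmu-miR-532-3p, the opposite arm of the same hairpin, measured 2.66, 3.68, 3.38, 3.08, 4.72, 2.73 and 3.51 in curcumin tumors 1 to 7. Controls 1 to 6 gave 5.21, 4.80, 4.41, 4.92, 3.66 and 3.96. Curcumin tumors 2 and 5 reached into the range of the controls, and the lowest controls were 5 and 6. The difference was -1.10 (SE 0.36, 95% interval -1.89 to -0.31, limma adjusted p = 0.0582), with an exact permutation p of 0.0146 before adjustment. The adjusted p was 0.0105 without curcumin tumor 5 and 0.0461 without control 5.

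The log2 ratio of the 5p to the 3p arm of miR-532 did not separate the diets. It was 2.61 ± 0.32 (SD, n = 7) in curcumin tumors, with a range of 2.18 to 3.13, and 2.55 ± 0.23 (SD, n = 6) in controls, with a range of 2.20 to 2.85. The difference of 0.05 had an exact permutation p of 0.751, where 0.000583 is the smallest the design allows. Its sign was reversed in the deposited values, at -0.19 (exact permutation p = 0.0997), after normexp correction, at -0.44 (exact permutation p = 0.0035), and when curcumin tumor 6 or control 1 was left out, at -0.036 and -0.015. Normexp here adds 50 to each spot signal before log2, which shrinks log2 differences of a dim arm more than those of a bright one. Before normalization the 3p arm had medians of 8.86 under curcumin and 27.2 in controls, and the 5p arm 62.2 and 147. The part of the offset in this reversal was not tested. For miR-362 the 5p to 3p log2 ratio of the quantile-normalized values was -2.76 ± 0.61 in curcumin tumors and -1.91 ± 0.24 in controls. This is a description, because the 5p arm of miR-362 was used to choose the cluster.

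mmu-miR-188-5p, from the hairpin next to miR-532, was the one arm whose diets did not overlap. It measured 6.89, 6.01, 7.14, 6.86, 7.16, 6.57 and 6.39 in curcumin tumors 1 to 7. Controls 1 to 6 measured 7.56, 8.19, 8.58, 8.08, 10.00 and 8.22. Control 5 stood above the other controls, with a signal of 1444 before normalization against 169 to 344 in the other 5. The mean was 6.72 ± 0.42 (SD, n = 7) against 8.44 ± 0.84 (SD, n = 6), a fall of 1.72 (SE 0.35, limma adjusted p = 0.0084) or 3.29-fold. The exact permutation p was 0.000583, the smallest these 13 tumors can give. Without control 5 the fall was 1.45, with an adjusted p of 0.00462. Such a separation, with every curcumin tumor below every control, was seen in 1 of the 5 arms that were detected on all arrays and not used for the choice, in 1.39% of all miRNAs and in 3.7% of the 243 detected on all arrays.

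The opposite arm, mmu-miR-188-3p, was called detected in 3 of 6 controls and in 0 of 7 tumors under curcumin. Its sums lay at the floor in 3 controls and in 4 tumors under curcumin, and the detected values were too near background for a bound on the fold. The fitted difference was -0.94 with an SE of 2.01 (limma adjusted p = 1.00), so no difference could be seen at this signal.

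The hairpin miR-362 also gave both arms in all tumors. mmu-miR-362-5p measured 2.37, 3.30, 3.24, 2.59, 4.75, 2.28 and 3.21 in curcumin tumors 1 to 7. The values of controls 1 to 6 were 5.48, 5.20, 4.84, 5.25, 3.96 and 4.63. Curcumin tumor 5 lay within the range of the controls, above controls 5 and 6, and the other 6 curcumin tumors lay below all controls. The mean was 3.11 ± 0.84 (SD, n = 7) against 4.89 ± 0.55 (SD, n = 6), a difference of -1.79. Before normalization its signal was between 4.78 and 11.4 under curcumin (median 7.46) and between 20.5 and 46.8 in the controls (median 32.5), with no overlap. This fall is one of those that chose the cluster, and no test of the difference between diets is given for it.

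mmu-miR-362-3p was not used for the choice. It measured 5.46, 5.91, 5.84, 5.65, 6.26, 5.65 and 6.25 in curcumin tumors 1 to 7. In controls 1 to 6 it measured 7.07, 6.97, 6.93, 7.03, 6.18 and 6.66. The overlap came from control 5, which lay just below curcumin tumors 5 and 7. The mean was 5.86 ± 0.30 (SD, n = 7) against 6.81 ± 0.34 (SD, n = 6), a fall of 0.95 (SE 0.18, limma adjusted p = 0.00533) or 1.93-fold. The exact permutation p was 0.00233, and the adjusted p stayed between 0.00246 and 0.0163 when each tumor was left out in turn.

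Among the 840 miRNAs of the array with a RefSeq sequence, mmu-miR-329-3p was the one outside the cluster that was detected on any array and had the seed of one of the 9 arms with a sequence. It shares the seed of mmu-miR-362-3p, was detected on 5 arrays and had a difference of 1.01, which did not pass the threshold (limma adjusted p = 0.0621).

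The hairpin miR-501 was near the limit of the array. Its 5p arm was detected in none of the 13 tumors, and its sum was at the floor in each, so no difference could be measured. mmu-miR-501-3p, the other miRNA that chose the cluster, was called detected in all 6 controls and in 5 of 7 tumors under curcumin. Controls 1 to 6 gave 1.89, 1.62, -0.32, 1.72, -2.20 and 0.11. In curcumin tumors 2 and 5 it measured -0.92 and -1.79, and the other 5 curcumin tumors were at the floor, where values have no order. Curcumin tumors 3, 6 and 7 were among these 5 although the scanner software called the miRNA detected there. In curcumin tumor 5 the sum was -1.09 before normalization, and quantile normalization placed it above the floor. The difference of the means turned on the scaling and the floor. It was -5.88 with the floor of -7.03, and -8.03 to -5.42 when each array was left out in turn, the lowest without control 2. It was -0.89 with values below 1 set to 1, -1.80 when only detected probes were summed, -0.70 in the deposited values and -0.07 after normexp correction. Without normalization it was -10.09, and with the 75th percentile over detected and over all miRNAs it was -10.12 and -10.15.

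The last hairpin, miR-500, was represented by its 3p arm. mmu-miR-500-3p measured 7.37, 7.03, 7.03, 6.81, 7.79, 7.33 and 7.33 in curcumin tumors 1 to 7. The values of controls 1 to 6 were 8.35, 8.08, 8.11, 8.19, 7.69 and 7.75. Only curcumin tumor 5 reached the controls, above controls 5 and 6. The mean was 7.24 ± 0.32 (SD, n = 7) against 8.03 ± 0.26 (SD, n = 6), a fall of 0.79 (SE 0.16, limma adjusted p = 0.0084) or 1.72-fold. The exact permutation p was 0.00233, and leaving out each tumor in turn gave adjusted p-values of 0.00137 to 0.0221. When each array was divided by its 75th percentile over all miRNAs, the fall of 0.57 did not pass (limma adjusted p = 0.231).

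mmu-miR-500-5p was called detected in no tumor. Its sums were at the floor in 2 of the 7 tumors under curcumin and in no control, and the fitted difference of -3.33 did not pass (SE 1.35, limma adjusted p = 0.131). Of the 2 arms outside the list, 0 passed the threshold by limma, with 1 of them below 0.05 before adjustment (mmu-miR-500-5p, exact permutation p = 0.0286). After normexp correction mmu-miR-500-5p passed, with a difference of -0.06 (limma adjusted p = 0.0162, with 8.71% of all miRNAs called lower).

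The 10 arms were read by 32 probes. Of these, 13 were above 3 times their error on all 13 arrays, of which 2 read mmu-miR-362-5p, whose fall chose the cluster. The other 11 had a lower mean in curcumin tumors, by 0.57 to 1.71 on the log2 scale. The share over all probes of the array is not given. Among the 243 miRNAs detected on all arrays, 56.8% had a lower mean. The 4 probes of mmu-miR-188-5p gave -1.71 to -1.58, and the probe pair of mmu-miR-362-3p gave -0.92 and -0.90. For mmu-miR-532-5p both probes gave close values, -1.11 and -1.09. The probes of mmu-miR-500-3p differed more, at -0.90 and -0.57. For mmu-miR-362-5p 2 of 4 probes carried signal in all tumors. For mmu-miR-501-3p a single probe of 4 carried signal, above 3 times its error in all 6 controls and in 5 of the 7 tumors under curcumin, with medians before normalization of 4.61 in controls and 1.77 under curcumin. The other 3 had medians below 0 in both diets. Probes of one miRNA cover the same molecule and are no replicates of the diet.

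**Figure D2:**
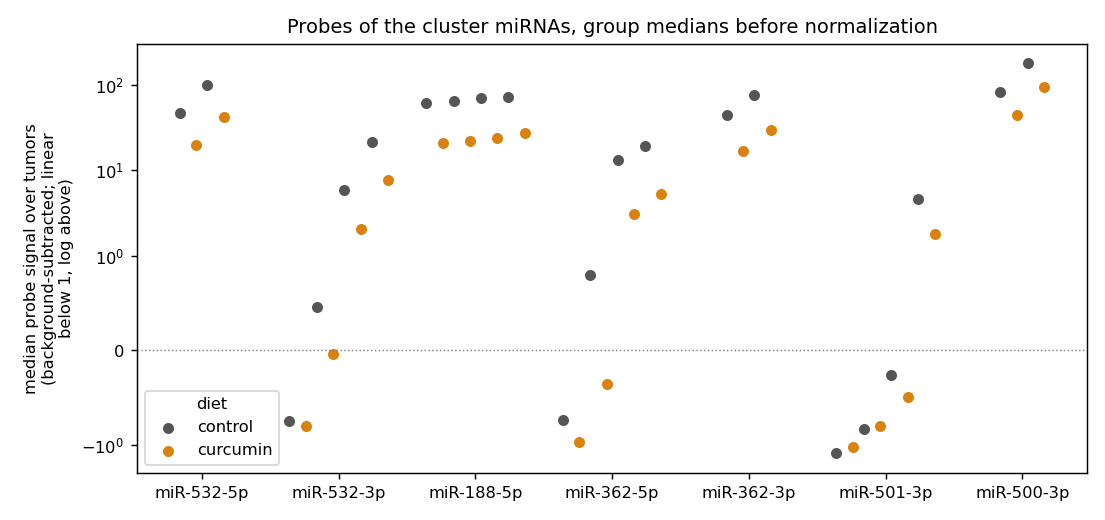
Each point is the median over the tumors of a diet (grey control, n = 6, orange curcumin, n = 7) of the background-subtracted signal of 1 probe before normalization, on an axis that is linear below 1 and logarithmic above, for 7 cluster miRNAs on the horizontal axis. All 4 probes of miR-188-5p are well above 0 and lower in curcumin tumors, whereas 3 of 4 probes of miR-501-3p are below 0 in both diets.

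How the arrays were scaled changed the size of the differences and, for some arms, the call. The 5 arms detected on all arrays and not used for the choice had a lower mean in curcumin tumors under each of the 6 ways of making the values shown in the plot by scaling. Without normalization, 4 of these 5 arms had every curcumin tumor below every control, the exception being mmu-miR-500-3p, where the highest curcumin tumor was at 7.57 and the lowest control at 7.39. Such a separation was then seen in 2.97% of all miRNAs and in 9.05% of the 243 detected on all arrays. When each array was divided by its 75th percentile over the detected miRNAs, mmu-miR-532-3p passed too (limma adjusted p = 0.0181, with 6.21% of all miRNAs called lower), as it did without normalization (limma adjusted p = 0.0136, with 3.61%). With that percentile taken over all miRNAs, 2 of the 6 tested passed, mmu-miR-188-5p and mmu-miR-362-3p, with 2.97% of all miRNAs called lower.

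**Figure D3:**
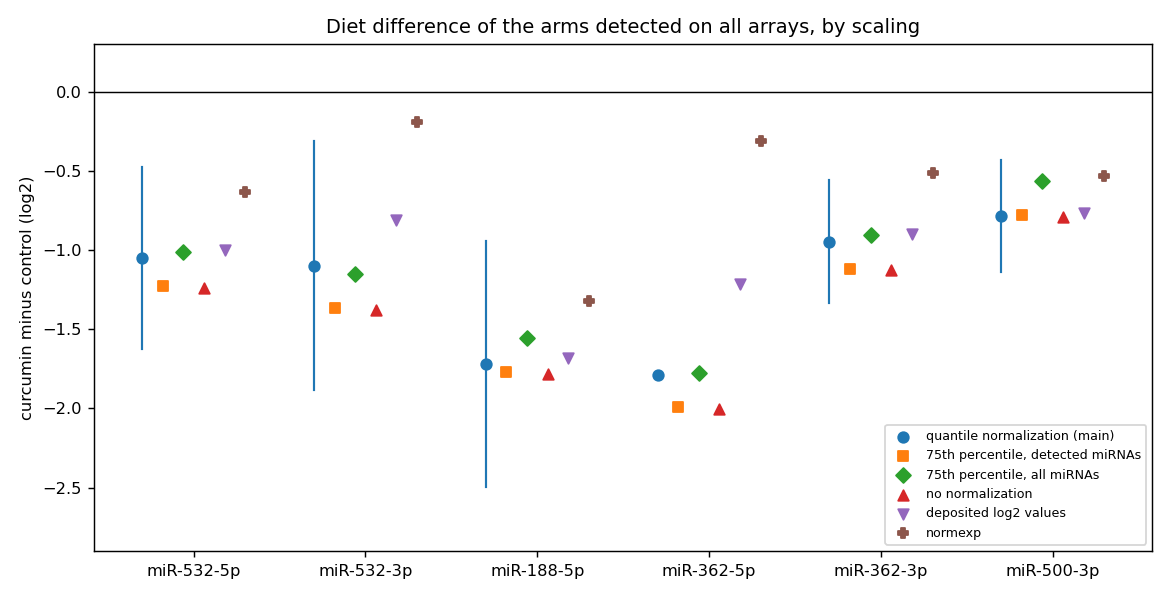
The vertical axis is the curcumin minus control difference of the mean log2 signal for the 6 arms detected on all arrays, with 1 symbol for each way of making the values, and the vertical lines are 95% intervals of the quantile-normalized values, not drawn for miR-362-5p, whose fall chose the cluster. All symbols lie below 0, and the normexp values lie nearest to 0 for each arm, such as -0.19 for miR-532-3p.

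Curcumin tumor 5 and control 5 took opposite places before and after normalization. In mmu-miR-532-5p, curcumin tumor 5 was at 5.99 before normalization and 6.89 after it, and control 5 was at 7.17 before and 6.23 after. Their arrays had the lowest total signal of all 13, 114095, and the highest among the controls, 244666. The part of the scaling in the overlap of the diets was not tested.

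**Figure D4:**
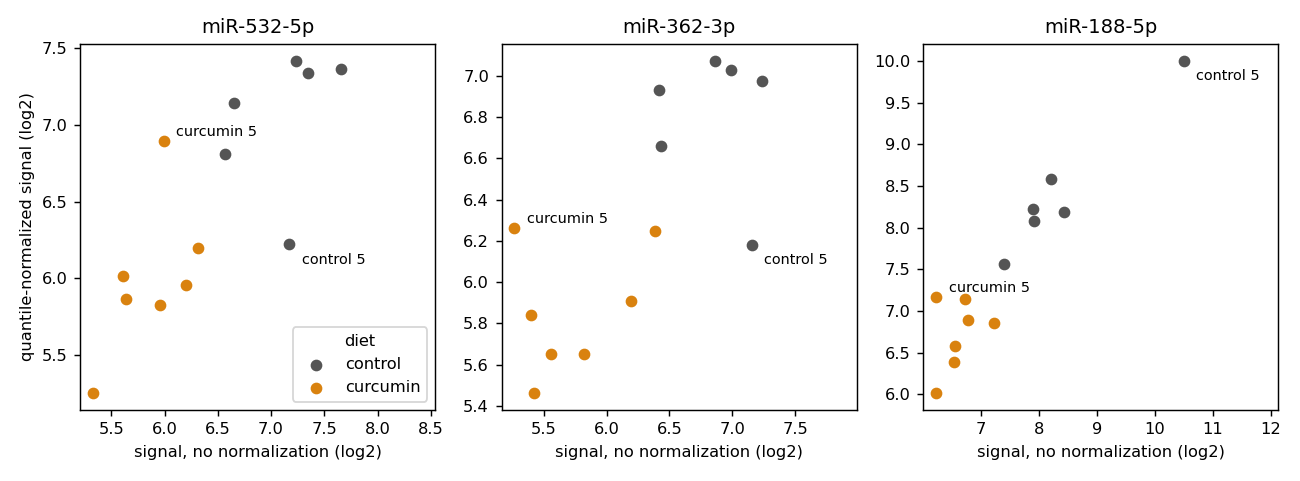
Each point is 1 tumor (grey control, n = 6, orange curcumin, n = 7), with the log2 signal before normalization on the horizontal axis and after quantile normalization on the vertical axis, for 3 cluster miRNAs. In miR-532-5p and miR-362-3p curcumin tumor 5 lies above the other tumors of similar horizontal position and control 5 below them, and in miR-188-5p control 5 is at the top on both axes, at 10.50 and 10.00.

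The deviations of 5 of the 6 arms were alike from tumor to tumor, and those of mmu-miR-188-5p differed from them. Over the 13 tumors, as deviations from the diet means, the 10 pairs among mmu-miR-532-5p, mmu-miR-532-3p, mmu-miR-362-5p, mmu-miR-362-3p and mmu-miR-500-3p had Pearson correlations of 0.64 to 0.98 (median 0.86). The 5 pairs with mmu-miR-188-5p had correlations of -0.59 to -0.29 (median -0.39). The latter came to -0.93 to -0.75 over the 6 controls and to -0.08 to 0.28 over the 7 curcumin tumors, and those of the 10 pairs to 0.90 to 0.99 and 0.46 to 0.99. These are descriptions, because the arms share the array and its scaling. Without normalization the ranges were 0.48 to 0.96 and -0.10 to 0.24, and with arrays divided by the percentile over detected miRNAs 0.87 to 0.98 and -0.07 to 0.06. Without normalization the pairs with mmu-miR-188-5p came to 0.08 to 0.45 over the controls and to -0.57 to -0.08 over the curcumin tumors. The sign over the controls was thus reversed. With that percentile these pairs came to -0.92 to -0.82 and to 0.36 to 0.53. Control 5 was the lowest control in the first 5 arms and the highest in mmu-miR-188-5p, with a deviation of 1.57 there against -0.82 in mmu-miR-532-5p. Curcumin tumor 5 was the highest curcumin tumor in all 6 arms.

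**Figure D5:**
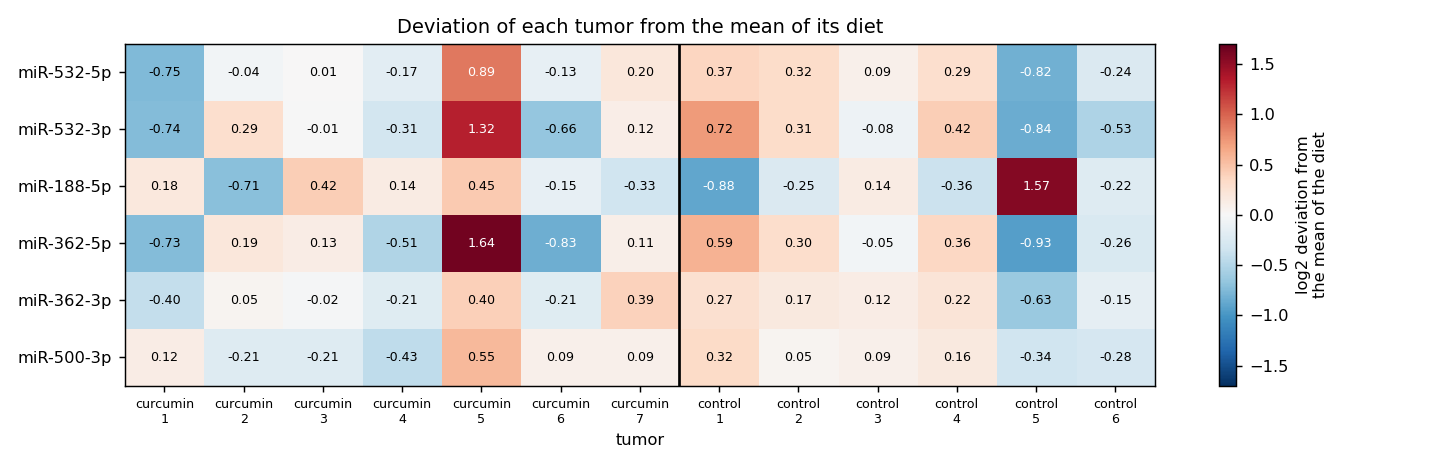
Rows are the 6 arms detected on all arrays and columns the 13 tumors, and the color and number give the log2 deviation of a tumor from the mean of its own diet. Control 5 is at -0.93 in miR-362-5p and 1.57 in miR-188-5p, and curcumin tumor 5 is at 1.64 in miR-362-5p.

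The miRNAs outside the cluster whose deviations followed the mean of the 6 arms most closely, among the 243 detected on all arrays, were mmu-miR-18a-5p (r = 0.96 over 13 tumors), mmu-miR-130b-3p (r = 0.95), mmu-miR-181a-1-3p (r = 0.95), mmu-miR-92a-3p (r = 0.92) and mmu-miR-128-3p (r = 0.90). The mean of mmu-miR-18a-5p was 6.31 ± 0.60 in curcumin tumors (n = 7) and 7.77 ± 0.30 in controls (n = 6), a difference of -1.46 (limma adjusted p = 0.005). mmu-miR-130b-3p differed by -1.79 (limma adjusted p = 0.00875), mmu-miR-128-3p by -1.06 (limma adjusted p = 0.0205) and mmu-miR-92a-3p by -0.53 (limma adjusted p = 0.0377). mmu-miR-181a-1-3p differed by -1.11, which did not pass (limma adjusted p = 0.154). mmu-miR-188-5p itself correlated with that mean at -0.15 and ranked 172 of 243, while the other 5 arms ranked between 1 and 31. All 6 arms are part of that mean. Outside the cluster, mmu-miR-18a-5p ranked 2 and mmu-miR-130b-3p 3, so such likeness was not particular to these arms.

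The difference was measured on both slides, of which slide 1 held 3 curcumin tumors and 2 controls and slide 2 held 4 of each. On slide 1 the difference was -1.65 for mmu-miR-532-5p, -1.77 for mmu-miR-532-3p, -1.29 for mmu-miR-362-3p, -1.07 for mmu-miR-500-3p and -1.19 for mmu-miR-188-5p. On slide 2 the same miRNAs differed by -0.68, -0.73, -0.75, -0.62 and -1.98. None of these 5 passed the threshold by limma on one slide alone, where 1.85% of all miRNAs on slide 1 and 0.185% on slide 2 were called lower. With the slide as a block, the same count of 4 of 6 tested miRNAs passed, beside 5.47% of all miRNAs. The interaction of slide and diet passed for 0 miRNAs of the array by limma, with 11 below 0.05 unadjusted, none of them a cluster arm (lowest unadjusted limma p over the arms 0.0876, adjusted 1.00).

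Of the marker lists of cell types, only that of blood cells had all its members past the threshold. The summed signal of 4 miRNAs of blood cells was 342 to 1347 in curcumin tumors and 84.4 to 286 in controls, and all 4 were higher under curcumin, beside 8.34% of all miRNAs and 49 of the 243 detected on all arrays. That of 5 miRNAs listed for fibroblasts was 498 to 1094 and 161 to 392, with 2 of 5 higher. This list held mmu-miR-199a-3p, mmu-miR-199a-5p, mmu-miR-214-3p, mmu-miR-143-3p and mmu-miR-145-5p. That of 7 epithelial miRNAs was 218 to 1739 and 3.32 to 165, with 1 of 7 higher and 5 of 7, the miR-200 family, detected on no array. Of 4 skeletal muscle miRNAs 1 was higher, with sums of 29.1 to 962 and 23.3 to 607. The sum of the melanocytic pair mmu-miR-211-5p and mmu-miR-204-5p was 4.19 to 624 in curcumin tumors and 308 to 847 in controls. Of the pair 1 was lower, beside 7.51% of all miRNAs and 21.4% of the 243 detected on all arrays. Of 2 endothelial miRNAs (254 to 820 against 137 to 281) and 2 erythroid miRNAs (45.4 to 277 against 39.9 to 714), none passed by limma in either direction. Their part in the fall of the cluster arms was not tested.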

How the data were processed

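Total RNA of 13 flank tumors (curcumin diet n = 7, control n = 6) was labeled with Cy3 and hybridized to mouse miRNA arrays by the authors. The deposited scanner files hold intensity values from Feature Extraction (version 10.10.1.1), background-subtracted within an array and not normalized between arrays, and flags for detected miRNAs. The authors also deposited log2 values after quantile normalization of probe sums, which served here as an alternative.

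The background-subtracted probe signals of each mouse miRNA were summed, quantile normalized, set to a floor of 0.00765 where at or below 0, and log2 transformed. Control spots and viral miRNAs were left out. Spots with outlier flags were left out in the normexp alternative only. Diets were compared with limma (version 3.58.1 in R 4.3.3). All 1079 miRNAs entered the fit, p-values were adjusted by the method of Benjamini and Hochberg, and 0.05 was the threshold. Single values were compared with exact two-sided permutation tests. The fit was also run on simulated data with independent normal noise and no floor, which does not test it on values at the floor. Samples were grouped by their labels, and p-values measure the spread between tumors. The authors housed the mice in groups, and the labels give no cage, so a spread between cages could not be measured.

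Named miRNAs were the cluster arms, detected miRNAs outside it with the seed of an arm, and the 5 miRNAs whose deviations best followed the arms. The members, marker lists and tests were chosen with earlier results of these data known. Arms of miR-660 were not analysed here.

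Alternatives were the deposited values, other scalings, normexp (offset 50, on median spot signals, as mean signals were not used here), a floor of 1, only detected miRNAs, the methods' test, slide and replicate number as blocks, single slides, and each array left out. For normexp, the log2 values of the probes of a miRNA were averaged and not summed. The offset was added before log2, so log2 differences of dim miRNAs are shrunk most in that setting. Summing detected probes only was added after seeing the data. The array's annotation names another genome build than the one of the sequences, and only the latter's coordinates are given.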

Additional observations from a re-analysis of the deposited data

Results flagged for a closer look

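In mmu-miR-362-5p, curcumin tumor 5 (log2 value 4.75) lay apart from the other 6 curcumin tumors (2.28 to 3.30). Its gap to the next was 0.586 of the whole range of the group, past Dixon's critical value at the 95% level. This concerns the spread within one diet and not the difference between diets. Of 18 groups of values checked this way 1 was past it, and chance puts about 1 in 20 there. This tumor's array had the lowest total signal (114095) and the fewest detected miRNAs (272). Its signal before normalization, 11.4, lay beside that of curcumin tumor 7 at 11.2.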

How the results depend on the processing

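The number of tested cluster miRNAs past the threshold, 4 of 6, became 2 when arrays were divided by their 75th percentile over all miRNAs. It became 1 with the replicate block, 0 on slide 1 alone and 0 on slide 2 alone. The share of all miRNAs called lower was then 2.97%, 2.04%, 1.85% and 0.185%. The number was 5 of 6 in the deposited values, with the 75th percentile over detected miRNAs, without normalization and after normexp correction. Of all miRNAs 11.4%, 6.21%, 3.61% and 8.71% were then called lower. With only the 304 miRNAs tested that were detected on every array of a diet, it was 5 of 5, beside 31.6% of the 304. mmu-miR-501-5p was not among them. In each of these settings mmu-miR-532-3p passed too, with limma adjusted p = 0.0448 in the deposited values, 0.0382 after normexp correction and 0.0165 with only detected miRNAs. With 1 array left out, the number that passed ranged from 3 (without control 2 or control 4) to 5 (without curcumin tumor 5 or control 5). Lower calls then made up 3.52% and 4.17% of all miRNAs for 3, and 7.88% and 5.75% for 5. The count over all miRNAs, 171, became 105 with that percentile, 49 without normalization, 102 with detected probes only, 67 with the replicate block, 34 on slide 1 and 3 on slide 2, and ranged from 102 to 184 with 1 array left out. These 171 were 90 higher and 81 lower, against 73 and 32 with that percentile and 10 and 39 without normalization. With only detected miRNAs 68 and 96 of 304 were higher and lower. The median over the 8 listed miRNAs, with both that chose the cluster, was -0.42 after normexp correction, and -1.27 to -0.95 with 1 array left out. Of the arms outside the list, 1 passed after normexp correction. The 5p to 3p difference of miR-532 reversed to -0.19 in the deposited values and -0.44 after normexp correction, and with 1 array left out to -0.036 (without curcumin tumor 6) and -0.015 (without control 1), in a range of -0.036 to 0.12. mmu-miR-188-3p reversed to 0.24 on slide 2 alone. The causes were not tested. Each single slide also held fewer arrays than the main comparison.

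Labels number the tumors of each diet, but nothing says that a number pairs them. Deviations of same-numbered tumors correlated at 0.11, 0.13, 0.02, 0.13, -0.30 and 0.20 over 243 miRNAs, and no curcumin tumor correlated best with its own number. With the replicate block mmu-miR-188-5p alone passed of those tested (limma adjusted p = 0.0431, with 2.04% of all miRNAs called lower).

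Signal over background limits miR-501, mmu-miR-188-3p and mmu-miR-500-5p.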
